A study of Mus musculus with 4 samples.

Results

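The genes described here encode the metalloproteases that act outside the cell or at its surface, together with their inhibitors. They were chosen by symbol from the protein-coding genes of the mm9 annotation: the matrix metalloproteases (Mmp), the ADAMTS proteases (Adamts), the membrane-anchored ADAM proteins (Adam) and the tissue inhibitors of metalloproteases (Timp). This rule found 78 of 22380 genes, of which 23 were Mmp, 19 Adamts, 32 Adam and 4 Timp genes. Every ATAC-seq peak with its summit within 50 kb of a transcription start site (TSS) of one of them was taken. At the edge of this rule, the last peaks inside were 49940 bp from Adam9 (31 tags) and 49909 bp from Timp1 (28 tags), and the first outside were 50099 bp from Adamts1 (14 tags) and 50108 bp from Mmp23 (49 tags).

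ATAC-seq maps open chromatin, where the Tn5 transposase can insert sequencing adapters. The cells were im-scWAT cells, stromal vascular cells from the subcutaneous white fat of 5-week-old mice, immortalised with SV40 large T antigen and selected with puromycin. WT cells came from Jmjd1a +/+ mice and HY cells from Jmjd1a HY/HY mice, in which a histidine-to-tyrosine change inactivates this H3K9 demethylase. Both were assayed before differentiation (D0) and as beige adipocytes at day 8 (D8). The D8 cells had received indomethacin, dexamethasone, 3-isobutyl-1-methylxanthine, rosiglitazone, insulin and T3 for 2 days, and then insulin, T3 and rosiglitazone for 6 days. Each of the 4 groups was 1 library, so a difference given here is between libraries and not between conditions, no test between groups was made, and all intervals cover counting error only. The WT and HY cells are separate cultures, so that genotype and culture cannot be told apart, and the point mutation leaves no mark in a peak list by which the genotype could be checked.

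The lists held between 41228 and 77994 peaks. Read counts were not used, and the lowest background rate in each list stands for the depth of the library. By this measure the D8 libraries had 0.806 (WT) and 0.698 (HY) of the depth of their D0 libraries. Levels are given as the summit pileup, the number of tags stacked at the summit, and ratios between libraries were scaled by the background rate of each. Pileups listed together follow the order WT D0, WT D8, HY D0, HY D8. Of 9 adipocyte markers, 3, 8, 4 and 8 had a promoter peak in these libraries, among them Adipoq (26 and 25 tags at D8) and Fabp4 (46 and 46), both without one at D0, while Ucp1 had none in any library. Of 6 preadipocyte markers 6, 1, 4 and 1 had one (6, 2, 5 and 2 where any peak overlapping the promoter counts, Pdgfra then having 50, 36, 52 and 37 tags), of 4 endothelial markers 3, 0, 2 and 1, and of 3 immune markers none. The part of other cell types in the results was not tested.

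Metalloproteases cut collagen, proteoglycans and other matrix proteins, and release growth factors, cytokines and receptor ectodomains from the cell surface. Most are made as inactive zymogens, and the Timp proteins block the active site of the mature enzymes. In fat the fibrous matrix around preadipocytes is rebuilt as the cells round up and fill with lipid, and Mmp14, a membrane-bound collagenase, is the member best known for this step.

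The D0-only and D8-only sites near these genes held AP-1 and C/EBP motifs at shares close to those of all such sites. Peaks of the 4 lists that shared 1 bp were merged into sites. A site is called D0-only when both D0 libraries had a peak there and neither D8 library did, and D8-only in the opposite case. The letters TGANTCA of AP-1, the dimer of Fos and Jun proteins, were found on either strand within 100 bp of the summit at 38 of 123 D0-only sites near metalloprotease genes (30.9%) and at 2 of 31 D8-only sites (6.45%). Over all D0-only and D8-only sites near protein-coding genes the shares were 30.2% and 7.01%. The letters TTGCNNAA of C/EBP, factors that drive adipogenesis, had the opposite order, at 9 D0-only sites (7.32%) and 7 D8-only sites (22.6%), beside 7.83% and 26.2% over all. At the sites with peaks in all 4 libraries AP-1 letters were at 31 of 171 (18.1%), beside 13.5%. The EBF motif was at 1 D0-only site (0.813%) and 2 D8-only sites (6.45%), beside 1.15% and 2.52%. The PPAR:RXR motif was at 1 D0-only site (0.813%) and no D8-only site, beside 0.0350% and 0.260%. No site near these genes had overlapping matches of 2 of the motifs. A match is a run of letters and not a bound site. The sites printed next were picked for a match, apart from that of Adam12: the strongest D0-only sites, at Timp2 and Adamts4, have no AP-1 letters in the 151 bases around the summit, and the strongest D8-only sites, at Adam12 and Adam17, no C/EBP letters.

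**Figure D1:**
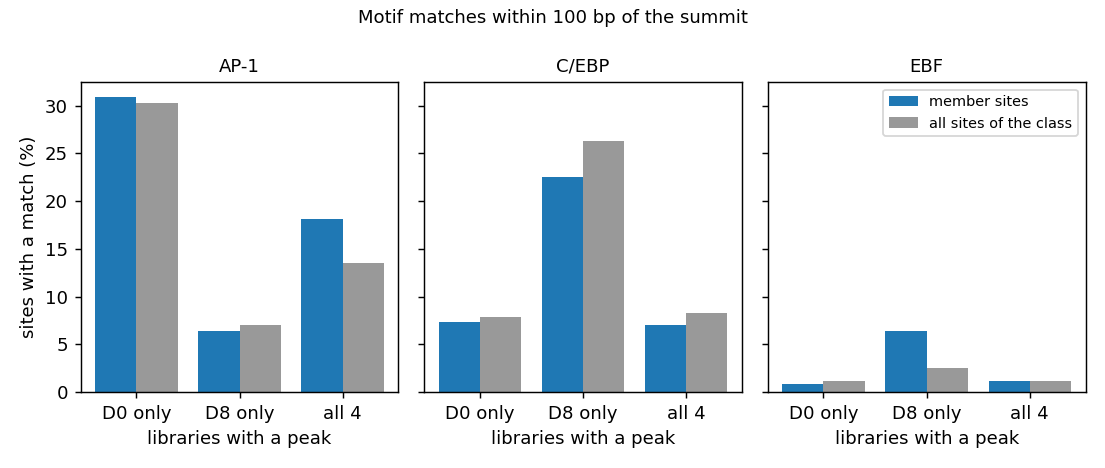
Share of sites (%) with a match to the motif within 100 bp of the summit, by the libraries with a peak, for sites near metalloprotease genes and for all sites of the same class. AP-1 matches are at 30.9% of the D0-only and 6.45% of the D8-only metalloprotease sites, and C/EBP matches at 7.32% and 22.6%.

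The D0-only sites with the highest pileup in their weaker genotype among those with an AP-1 match in the printed window are shown first, read from NCBIM37 (mm9) on the strand of the named gene, in lower case with the AP-1 letters in capitals. The Adamts18 site (chr8:116328155-116328305, minus strand) lies in an intron of that gene and had 35 tags in WT and 44 in HY. The site near Adamts12 (chr15:10972629-10972779, plus strand) is intergenic and nearest to Rxfp3, with 23 and 24 tags. That near Adam33 (chr2:130922270-130922420, minus strand) is intergenic and nearest to Siglec1, with 23 and 36. The Mmp2 site (chr8:95373305-95373455, plus strand) lies in an intron of Mmp2, with 23 and 32.
Adamts18 site: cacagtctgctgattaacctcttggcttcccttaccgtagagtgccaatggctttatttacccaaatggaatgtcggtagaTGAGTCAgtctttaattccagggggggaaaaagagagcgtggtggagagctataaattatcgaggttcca
Adamts12 site: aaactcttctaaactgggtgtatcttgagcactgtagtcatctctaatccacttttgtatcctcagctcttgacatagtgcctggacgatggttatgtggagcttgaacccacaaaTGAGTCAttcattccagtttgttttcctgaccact
Adam33 site: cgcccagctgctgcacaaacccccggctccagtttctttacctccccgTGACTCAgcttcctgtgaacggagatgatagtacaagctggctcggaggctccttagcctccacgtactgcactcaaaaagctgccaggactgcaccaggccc
Mmp2 site: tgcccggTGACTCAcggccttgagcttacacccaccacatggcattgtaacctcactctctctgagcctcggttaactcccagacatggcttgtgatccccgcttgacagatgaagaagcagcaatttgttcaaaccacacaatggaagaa

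The D8-only sites chosen in the same way for a C/EBP match come next, with those letters in capitals, followed by the D8-only site of the highest pileup, in which the capitals mark the EBF motif. The first lies within 50 kb of Adam2 but in an intron of Ephx2, 968 bp from its TSS (chr14:66730114-66730264, minus strand), and had 28 tags in WT and 36 in HY. The second, in the window of Timp4, is 303 bp upstream of a Syn2 TSS (chr6:115188695-115188845, minus strand), with 30 and 28. The Adam23 site (chr1:63526117-63526267, plus strand) is intronic, with 15 and 19, and the Adam30 site (chr3:97982264-97982414, plus strand) is intergenic, with 15 and 16. The Adam12 site (chr7:141385020-141385170, minus strand) lies in an intron of that gene, with 39 and 31.
Ephx2 intron site near Adam2: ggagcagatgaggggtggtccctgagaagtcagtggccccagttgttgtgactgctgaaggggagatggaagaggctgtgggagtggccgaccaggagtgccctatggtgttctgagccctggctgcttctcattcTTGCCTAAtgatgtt
Syn2 site near Timp4: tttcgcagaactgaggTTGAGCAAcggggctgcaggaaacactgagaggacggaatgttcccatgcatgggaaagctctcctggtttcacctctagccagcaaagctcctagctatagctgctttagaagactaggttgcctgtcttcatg
Adam23 site: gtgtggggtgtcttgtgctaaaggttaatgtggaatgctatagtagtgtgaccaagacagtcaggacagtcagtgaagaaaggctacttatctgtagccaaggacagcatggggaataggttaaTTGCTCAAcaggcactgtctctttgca
Adam30 site: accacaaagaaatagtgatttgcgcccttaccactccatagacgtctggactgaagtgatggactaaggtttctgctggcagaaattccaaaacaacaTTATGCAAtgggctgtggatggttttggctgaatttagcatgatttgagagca
Adam12 site: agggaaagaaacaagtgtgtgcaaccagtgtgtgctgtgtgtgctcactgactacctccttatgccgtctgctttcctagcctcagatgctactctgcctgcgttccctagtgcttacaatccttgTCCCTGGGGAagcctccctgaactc

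Between D0 and D8 the metalloprotease loci lost more called sites than they gained, and so did protein-coding loci in general. There were 602 sites near the 78 genes, of 75576 near any protein-coding TSS, made of 428, 266, 461 and 316 peaks. D0-only sites were 123 of the 602, a share of 20.4% (95% Wilson interval 17.4% to 23.8%), beside 22.7% of all sites near a protein-coding TSS. D8-only sites were 31, or 5.15% (3.65% to 7.22%), beside 6.10%. All 4 libraries shared 171 sites, 28.4% (24.9% to 32.1%), beside 28.0%. With every list shortened to 41228 peaks the D0-only and D8-only shares were 10.2% and 9.97%, so that the surplus of D0-only sites was not seen in lists of equal length. Within 10 kb of a TSS the D0-only share was 24.6%, beside 19.0% of all sites at that distance. The share of sites in all 4 libraries was 28.9% there, beside 37.3%.

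**Figure D2:**
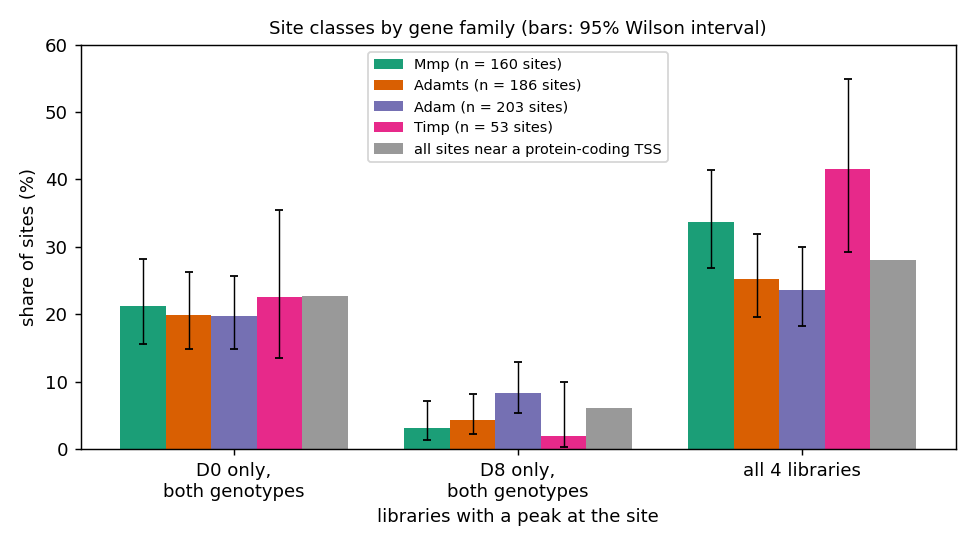
Share of sites (%) that are D0-only, D8-only or have a peak in all 4 libraries, for each gene family and for all sites near a protein-coding TSS; error bars are 95% Wilson intervals. The D0-only shares of the families lie between 19.7% and 22.6%.

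The families had similar shares of D0-only sites, as the plot of site classes shows. These were 21.2% of 160 Mmp sites, 19.9% of 186 Adamts sites, 19.7% of 203 Adam sites and 22.6% of 53 Timp sites, and their intervals overlap. D8-only sites were 17 at Adam genes (8.37%, 5.29% to 13.0%) and 8 at Adamts genes (4.30%, 2.20% to 8.26%). There were 5 at Mmp genes (3.1%, 1.34% to 7.11%) and 1 at a Timp gene (1.89%, 0.334% to 9.94%). These intervals overlap too, and the share over all sites was 6.10%. Of the D0-only sites, 65 lay in introns (52.8%), 30 between genes (24.4%), 21 at the promoter of a protein-coding gene (17.1%) and 7 in exons (5.69%). Of the D8-only sites, 20 were intronic (64.5%), 5 intergenic (16.1%), 4 at promoters (12.9%) and 2 exonic (6.45%). Over all 602 sites these shares were 44.4%, 24.9%, 20.6% and 10.1% in the same order. The nearest protein-coding TSS was that of a metalloprotease gene at 76 of the D0-only sites (61.8%) and 16 of the D8-only sites (51.6%), and the other sites may belong to neighbouring genes.

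Sites were unevenly spread over the genes. Adam15 and Adam19 had 23 sites each, Adam12 and Adamts2 21 each, and Mmp11 and Timp3 19 each, against a median of 7.5. At the other end 13 genes (16.7%, beside 13.3% of all protein-coding genes) had no peak within 50 kb in any library: Mmp1a, Mmp1b, Mmp3, Mmp10, Mmp12, Adamts19, Adam25, Adam26a, Adam26b, Adam29, Adam34, Adam6a and Adam6b. The 7 Adam genes among them belong to the ADAMs of the reproductive tract, of which 13 of 20 had a site. A missing peak is not a measure of closed chromatin, since the calling threshold moves with the local background.

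Of the inhibitors, Timp1 had a lower promoter at D8 in both genotypes, and so did Timp3 where a single site was followed. A promoter peak is one with its summit from 1000 bp upstream to 100 bp downstream of a TSS, and the strongest one in each library was used. Timp1 had promoter pileups of 41, 12, 47 and 11, so that both D8 libraries were below both D0 libraries. Scaled for depth, the D8/D0 ratio was 0.363 in WT (0.174 to 0.705) and 0.335 in HY (0.157 to 0.656). Upstream of it, a further site 661 bp from the TSS, in a Syn1 intron, was D0-only, with 27 and 18 tags.

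Timp3, the inhibitor that binds to the matrix, had promoter pileups of 37, 9, 37 and 15. The HY D8 value of 15 came from a neighbouring peak, and the promoter site with peaks in all 4 libraries had 12 tags there. At that site the ratio was 0.302 in WT (0.128 to 0.637) and 0.464 in HY (0.220 to 0.911), both intervals below 1. With the neighbouring peak the HY ratio was 0.581 (0.296 to 1.08). Timp2, which blocks Mmp2 and also takes part in its activation by Mmp14, had a site at its TSS with 33, 20, 48 and 19 tags. The WT D8 peak has its summit just outside the promoter window, so only the HY ratio counts as a promoter value. At this site the ratio was 0.752 in WT (0.409 to 1.35) and 0.567 in HY (0.315 to 0.982), and the WT interval includes 1. Timp4 had no promoter peak in any library.

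Away from the promoters each inhibitor locus held sites of different D8/D0 ratios, and the loci were not tested against each other. Timp2 held 7 sites with peaks in all 4 libraries. The one with the highest pileup in any library had 67, 20, 71 and 22 tags. It lies in a Timp2 intron 27.9 kb downstream of its TSS and nearest to the TSS of BC100451. Upstream, the intergenic site at 9.55 kb had 54, 13, 61 and 17 tags, and that at 7.60 kb had 41, 8, 49 and 14. At all 3 the scaled D8 level was below 0.5 of the D0 level in both genotypes. The Timp2 sites 24.0 kb upstream and 17.7 kb downstream had ratios of 0.657 and 0.477 in WT and 0.579 and 0.835 in HY. A further Timp2 intron site, 30.7 kb downstream, was the D0-only site with the highest pileup of all, 48 tags in WT and 51 in HY. The site at the TSS of the neighbouring Lgals3bp, by contrast, had 61, 51, 62 and 60 tags.

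At Timp3, which lies inside an intron of Syn3, the strongest site was 36.9 kb downstream and had 65, 38, 74 and 49 tags. Its scaled ratios were 0.726 in WT and 0.948 in HY. The Timp3 intron site at 25.4 kb, with 35, 16, 49 and 16 tags, had lower ones, 0.567 (0.293 to 1.05) and 0.468 (0.248 to 0.836). The distal Timp1 sites with peaks in all 4 libraries lie in Araf introns, and those 40990 bp and 21717 bp upstream had ratios of 0.414 and 0.693 in WT and 0.444 and 0.999 in HY. At Timp4 the sites with a peak in all 4 libraries reached no more than 24 tags, and the one 20.2 kb upstream had 13, 20, 24 and 21. The D8-only site near Syn2 printed above was the one D8-only site at an inhibitor gene.

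**Figure D3:**
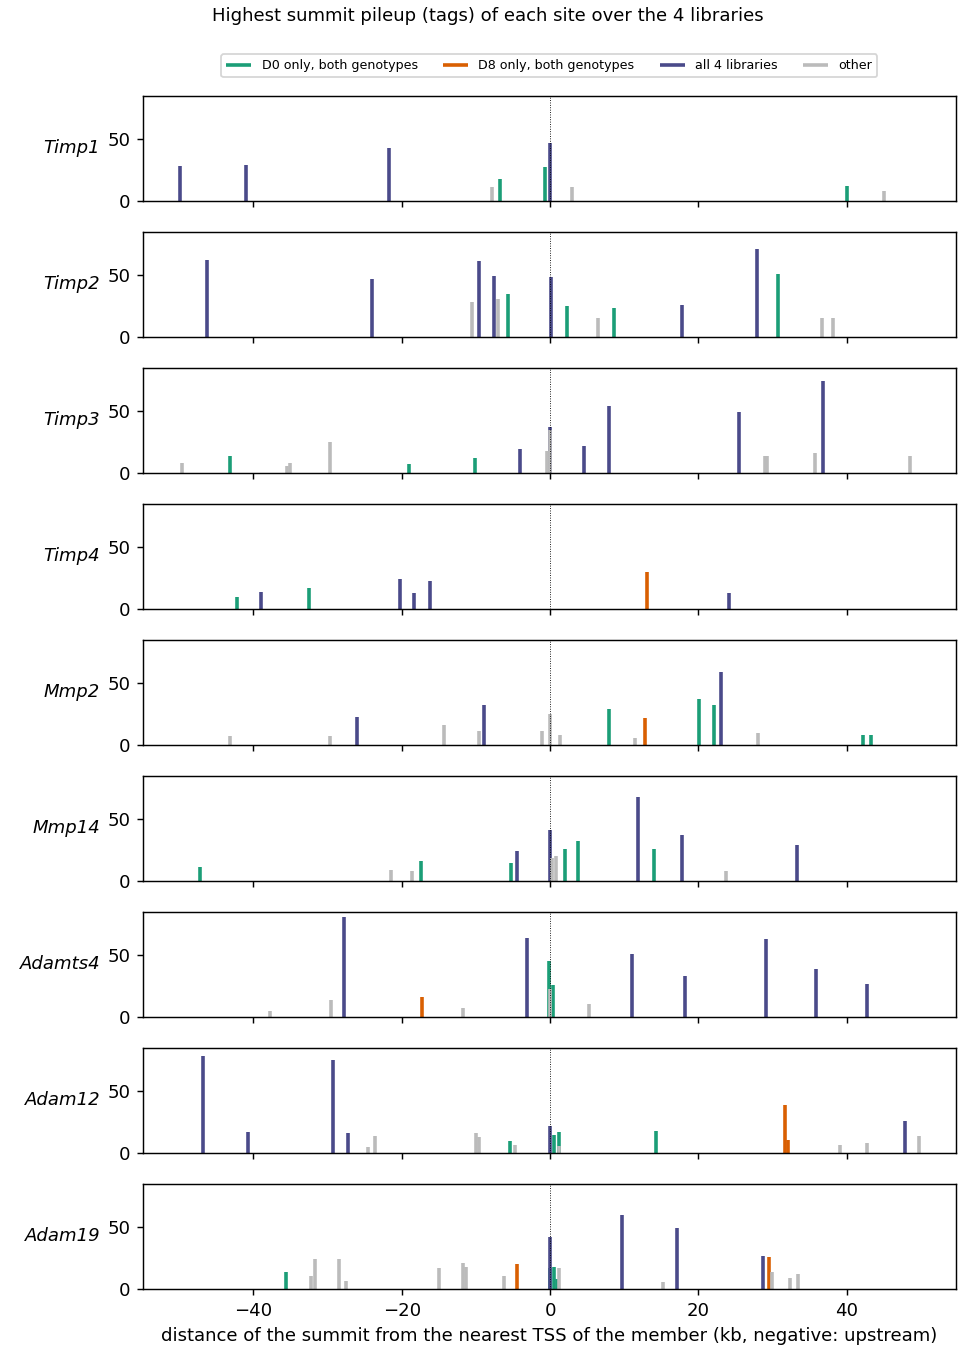
Highest summit pileup over the 4 libraries (tags) of every site, by distance from the nearest TSS of the gene (kb, negative upstream), for 9 genes. Vertical lines are single sites and their colour gives the libraries with a peak; the D0-only line at Timp2 30.7 kb downstream and the D8-only line at Adam12 31.7 kb downstream are the highest of their kind.

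Promoter peaks were found at 35 of the 78 genes in WT D0 (44.9%, beside 53.4% of all protein-coding genes) and at 26 in WT D8 (33.3%, beside 49.5%). In HY they were found at 40 genes at D0 (51.3%, beside 54.3%) and at 31 at D8 (39.7%, beside 50.4%). All 4 libraries had one at 22 genes (28.2%, beside 44.8%), and no library had one at 35 genes (44.9%, beside 41.4%). In 6 genes (7.69%, beside 3.09%) the promoter peak was D0-only, and in 1 gene (1.28%, beside 0.943%) it was D8-only.

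**Figure D4:**
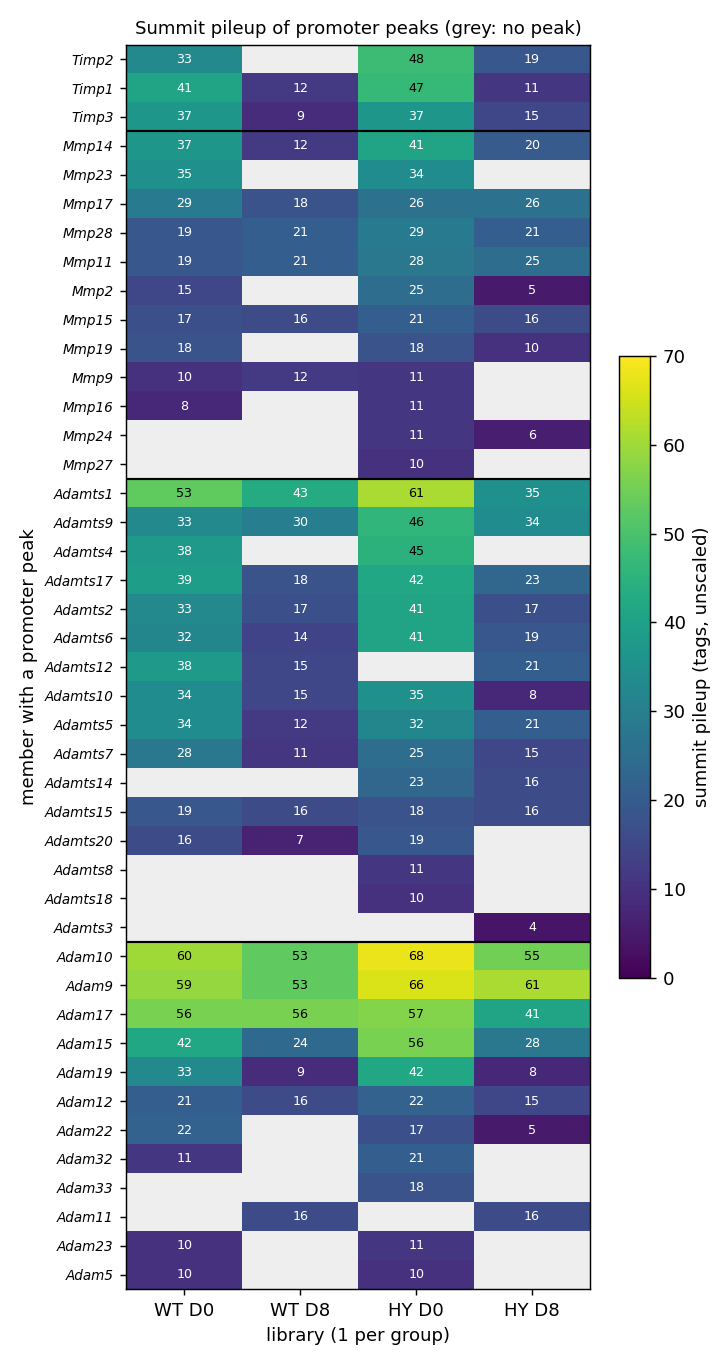
Summit pileup (tags, not scaled for depth) of the promoter peak of each gene with one in any library, in WT D0, WT D8, HY D0 and HY D8; genes are grouped by family and grey cells have no peak. Timp1 has 41 and 47 tags at D0 and 12 and 11 at D8, while Adam10 has 53 and 55 at D8.

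Promoter peaks were few at the secreted collagenases and the reproductive tract ADAMs. Over all protein-coding genes 53.4%, 49.5%, 54.3% and 50.4% had one. The role groups are small, and they were not tested against these shares. None of the 4 secreted collagenases had one in any library, and of the 20 reproductive tract ADAMs 2 had one at D0 and none at D8. Of the 7 proteoglycanases of the ADAMTS family 6, 5, 7 and 4 had one, and of the 9 sheddases of somatic tissues 6, 6, 7 and 6. The 6 membrane-type Mmp genes had 4, 3, 5 and 4, and the 3 procollagen N-proteinases 1, 1, 2 and 3.

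The 6 genes with a D0-only promoter peak were Adamts4, Mmp23, Adam32, Adam23, Adam5 and Mmp16. Adamts4, an aggrecanase, had the highest pileups, 38 in WT and 45 in HY, with a summit 83 bp upstream of its TSS. Mmp23 had 35 and 34, but a site 242 bp downstream of its TSS had a peak in all 4 libraries (43, 19, 49 and 16). Adam32 and Adam5, of the reproductive tract group, had 11 and 21 and 10 and 10. Adam23, a neural ADAM without protease activity, had 10 and 11, and Mmp16, a membrane-type enzyme, 8 and 11. The lowest pileups called in a library were 4 or 5 tags, and the D8 libraries were the shallower ones.

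Adam11, another neural ADAM without protease activity, was the gene with a D8-only promoter peak, of 16 tags in each D8 library. This call did not hold when any peak overlapping the promoter was counted, because a wide peak with its summit 754 bp downstream had 63, 18, 71 and 21 tags. The 150 bases upstream of the Adamts4 TSS (chr1:173180402-173180551, plus strand, mm9) are printed because this gene has the strongest of the D0-only promoters, and they hold none of the 4 motifs.
Adamts4 upstream: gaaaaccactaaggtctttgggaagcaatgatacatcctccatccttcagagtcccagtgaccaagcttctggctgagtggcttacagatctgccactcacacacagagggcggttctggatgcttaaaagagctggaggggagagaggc

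Mmp14 and Mmp2, which act together at the surface of mesenchymal cells, had lower promoters at D8. Mmp14 had 37, 12, 41 and 20 tags, and its D8/D0 ratio was 0.403 in WT (0.191 to 0.789) and 0.699 in HY (0.388 to 1.22), so that only the WT interval lies below 1. The Mmp14 site with the highest pileup in any library, intergenic and 11.8 kb downstream, had 61, 10, 68 and 18 tags. There the scaled WT level at D8 was 0.203 of that at D0, the lowest WT value among the 171 shared sites, and the HY value was 0.379. Mmp2, the gelatinase that Mmp14 activates, had promoter pileups of 15 and 25 at D0, none in WT D8 and 5 in HY D8. The HY ratio was 0.286 (0.0856 to 0.762).

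Of the Mmp2 sites 5 were D0-only, the printed one among them, and 1 was D8-only. An intron site 23.1 kb downstream had 46, 42, 59 and 48 tags, with ratios of 1.13 in WT and 1.17 in HY. The D8-only site, at 12.8 kb, had 14 and 22 tags. Mmp9, the other gelatinase, had weak promoter peaks of 10 and 11 tags at D0 and 12 in WT D8, and the site that overlaps its promoter in all 4 libraries had 26, 12, 23 and 9.

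Mmp11, stromelysin-3, had promoter pileups of 19, 21, 28 and 25, which came from 2 neighbouring sites. From these the D8/D0 ratio was 1.37 in WT (0.702 to 2.70) and 1.28 in HY (0.715 to 2.27), and both intervals include 1. The site 326 bp upstream of a TSS had 16, 21, 15 and 25 tags. Its ratio was 1.63 in WT (0.810 to 3.34) and 2.39 in HY (1.21 to 4.87). Of the 2 promoter sites only this one had an HY interval above 1. Away from the promoter, Smarcb1 intron sites 25708 bp and 24955 bp downstream had HY ratios of 3.94 (2.18 to 7.48) and 1.52 (1.07 to 2.15). At a Vpreb3 intron site 6424 bp upstream the HY ratio was 2.41, with its interval above 1 too. At the remaining Mmp11 sites with peaks in all 4 libraries the HY interval included 1. The site 1 bp upstream had 19 and 28 tags at D0, no peak in WT D8 and 21 in HY D8. Mmp15, a membrane-type enzyme, had 17, 16, 21 and 16, and its D8/D0 interval includes 1 in both genotypes. Mmp28, known as epilysin, had 19, 21, 29 and 21. Mmp11 also had D8-only sites 801 bp downstream of a TSS, with 29 and 26 tags, and in Chchd10, with 22 and 20. Against these 2 it had 3 D0-only sites, and the Mmp11 intron site 1.97 kb downstream was lower, with 35 and 30 tags at D0, 11 in WT D8 (ratio 0.390, 0.179 to 0.786) and no peak in HY D8.

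The cluster of secreted collagenases and stromelysins on chromosome 9 held few peaks. Mmp13, the main interstitial collagenase of the mouse, had 1 site, with 7 tags in HY D8 alone, and the stromelysins Mmp3 and Mmp10 had none. Most of the signal was at Mmp27, where an intron site had 17, 8, 22 and 10 tags and an intergenic site 23.9 kb downstream had 37, 26, 38 and 24. The letters of AP-1 were nevertheless found in the 150 bases upstream of a TSS in 12 of the 78 genes (15.4%), beside 3.62% of all protein-coding genes, and 7 of the 12 lie in this cluster. Among the 12, Mmp19 alone had a promoter peak by the summit rule. The upstream sequences of Mmp3 (chr9:7445672-7445821, plus strand, mm9) and Mmp13 (chr9:7272364-7272513, plus strand) are shown for comparison with the D0-only sites above, with the AP-1 letters and, at the start of the Mmp3 sequence, the C/EBP letters in capitals.
Mmp3 upstream: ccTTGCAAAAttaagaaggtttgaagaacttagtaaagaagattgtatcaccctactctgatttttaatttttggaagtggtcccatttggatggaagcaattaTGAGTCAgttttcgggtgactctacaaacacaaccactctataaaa
Mmp13 upstream: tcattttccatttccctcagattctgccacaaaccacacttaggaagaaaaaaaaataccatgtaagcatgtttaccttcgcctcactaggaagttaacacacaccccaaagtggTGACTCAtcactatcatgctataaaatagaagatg

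Among the ADAMTS genes the promoters differed from gene to gene. Adamts1, a proteoglycanase, had 53, 43, 61 and 35 tags, and Adamts9, another, had 33, 30, 46 and 34. Their D8/D0 intervals include 1 in both genotypes. Adamts5, the second aggrecanase, had 34, 12, 32 and 21, with a ratio of 0.438 in WT (0.207 to 0.867) and 0.940 in HY (0.515 to 1.68). The Adamts5 intron site 2.54 kb downstream was lower in both genotypes, with 31, 11, 35 and 11 tags.

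Adamts2, which removes the amino-terminal propeptide of fibrillar procollagens, had 33, 17, 41 and 17 tags at its promoter. An intron site 20.4 kb downstream had 52, 12, 68 and 15, and the one at 30.3 kb had 41, 11, 59 and 11. Both had ratios below 0.5 in both genotypes, while the promoter ratios were 0.639 and 0.594. Adamts10, a gene linked to fibrillin microfibrils, had 34, 15, 35 and 8 at its promoter, and its ratio was 0.548 in WT (0.277 to 1.03) and 0.327 in HY (0.131 to 0.718).

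The sheddases had both high promoters on each day and lower ones at D8. Adam10, which releases Notch and other ectodomains, had 60, 53, 68 and 55 tags, and Adam17, the TNF-converting enzyme, had 56, 56, 57 and 41. Adam9, a further sheddase, had 59, 53, 66 and 61 between its TSS and that of Tm2d2 on the other strand. None of these 3 had a D8/D0 interval below 1 in either genotype. Adam19 had 33, 9, 42 and 8, and ratios of 0.339 in WT (0.142 to 0.723) and 0.273 in HY (0.111 to 0.588). Its intron sites 9.70 kb downstream (53, 13, 60 and 18) and 17.1 kb downstream (41, 9, 49 and 9) were lower too. The intron site at 28.7 kb (15, 24, 27 and 14) was not, with a ratio of 1.99 in WT (1.00 to 4.07) and 0.743 in HY (0.360 to 1.47), and a D8-only site at 29.6 kb had 26 and 15 tags.

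Adam12, expressed in mesenchymal progenitors, differed between its promoter and its distal sites. The promoter had 21, 16, 22 and 15 tags, with ratios of 0.946 and 0.976. An intron site 46.9 kb upstream of the nearest Adam12 TSS had 60, 14, 78 and 23, and an intergenic one 29.3 kb upstream had 75, 17, 74 and 28. The D8-only intron site printed above lies 31.7 kb downstream of the nearest TSS. Adam17 also had a D8-only intron site, 2.79 kb downstream of the nearest of its TSSs, with 37 and 28 tags. Adam15, which binds integrins, had 42, 24, 56 and 28 at its promoter.

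The rest of the 10 strongest D0-only sites were spread over several genes. They were a site 46.6 kb from Adam15 and nearest to Zbtb7b (30 tags in WT and 34 in HY), an intron site of Adamts6 (28 and 33) and a second Mmp23 site (28 and 37). Others lay 1.33 kb upstream of Adamts1 (29 and 26), in an exon of Mmp24 (26 and 36) and upstream of Adamts14 (25 and 33). The rest of the 10 strongest D8-only sites were in an exon of Mmp28 (24 and 30), in a Zbtb7b intron near Adam15 (24 and 25), between genes near Adamts13 (29 and 19) and in an intron of Adam19 (18 and 20).

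Over the 171 sites with peaks in all 4 libraries the median D8/D0 ratio was 0.848 in WT and 0.852 in HY, beside 0.913 and 0.955 over all such sites near protein-coding genes. Ratios of 0.5 or less in both genotypes were found at 21 sites (12.3%), beside 6.80%, and of 2 or more at 2 sites (1.17%), beside 2.30%. The first group lay in the windows of Timp1, Timp2, Timp3, Mmp14, Adamts2, Adamts4, Adamts5, Adamts9, Adam8, Adam10, Adam11, Adam12, Adam15, Adam19 and Adam33. The second comprised a Vpreb3 intron site 6.42 kb upstream of Mmp11 (13, 25, 19 and 32 tags) and an intron site of Adamts7 (13, 27, 19 and 28). Sites of 1 gene share a locus and are not independent of each other.

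**Figure D5:**
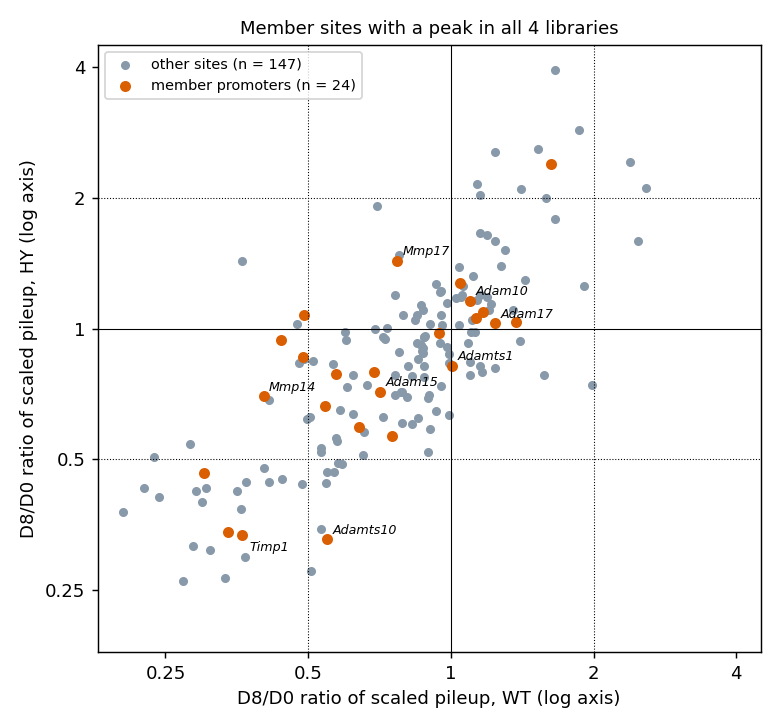
D8/D0 ratio of scaled summit pileup in WT (x axis) and HY (y axis), both on log axes, at the 171 sites with a peak in all 4 libraries; the 24 sites at promoters of these genes are drawn apart from the others. In both genotypes 21 sites are at 0.5 or less and 2 at 2 or more.

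For the 22 genes with a promoter peak in all 4 libraries, the D8/D0 ratio was below 1 in both genotypes at 12 (54.5%), beside 34.6% of the 10024 such protein-coding genes, and above 1 in both at 8 (36.4%), beside 36.0%. The 95% interval lay below 1 at 5 promoters in WT (Adam19, Adamts5, Mmp14, Timp1 and Timp3; 22.7%, beside 4.99%) and at 3 in HY (Adam19, Adamts10 and Timp1; 13.6%, beside 4.85%). It lay above 1 at none in either, beside 1.85% in WT and 2.66% in HY. Where the ratio was taken at a single promoter site with peaks in all 4 libraries, an alternative chosen after seeing the data, 6 of 24 sites lay below 1 in WT (25%, beside 5.78%) and 5 in HY (20.8%, beside 5.44%). By that rule Adam19, Timp1 and Timp3 lay below 1 in both genotypes, and Mmp11 lay above 1 in HY.

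Peaks without a counterpart on the other day were more frequent at D0 than at D8. A peak had a counterpart when 50% of its length or more lay under a single peak of the other library. In WT, 58 of 266 D8 peaks (21.8%, 17.3% to 27.1%) had none at D0, beside 25.7%, and in HY 77 of 316 (24.4%, 19.96% to 29.4%), beside 26.6%. In the other direction, 310 of 428 WT D0 peaks (72.4%) had none at D8, beside 70.2%, and 325 of 461 HY D0 peaks (70.5%), beside 68.9%. Within 10 kb of a TSS the D0 shares were 72.9% in WT (beside 62.2%) and 71.8% in HY (beside 61.2%). With 1 shared bp as the rule they were 55.1% (beside 55.9%) and 52.3% (beside 52.7%). With 50% of both peaks required, the D8 shares were 57.1% in WT (beside 55.4%) and 59.2% in HY (beside 56.6%).

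Between the genotypes few sites were restricted to 1 of them on both days. At D0, 34.3% of the HY peaks had no WT counterpart (beside 32.4%) and 20.6% of the WT peaks no HY counterpart (beside 19.1%). At D8 the shares were 37.0% (beside 37.1%) and 18.4% (beside 17.8%), and the HY lists were the longer ones on both days. Of the 602 sites, 7 (1.16%, beside 0.926%) had a peak on both days in HY alone and 2 (0.332%, beside 0.299%) in WT alone. At promoters, 2 genes (2.56%, beside 0.371%) had one in HY alone on both days and none in WT alone (beside 0.241%).

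These genes were Adamts14, a procollagen N-proteinase, with 23 tags at D0 and 16 at D8, and Mmp24, a membrane-type enzyme, with 11 and 6. Neither was without WT peaks nearby. A site 920 bp downstream of the Adamts14 TSS had 31 tags in WT D0 and 10 in WT D8, and one 4.73 kb upstream had 60, 41, 65 and 42. A Mmp24 intron site 415 bp downstream of a TSS had 8, 16, 9 and 10. The other named HY-only sites were a pair near Efna3 in the window of Adam15 (11 and 10 tags, and 15 and 8) and one in a Mmp14 intron (20 and 9). The WT-only sites were in a Plekha2 intron in the window of Adam9 (10 and 12) and in a Slc7a7 intron in the window of Mmp14 (9 and 6).

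At sites with peaks in all 4 libraries the HY/WT ratio was 0.5 or less on both days at none of the 171 (beside 0.0331%), and 2 or more on both days at none (beside 0.0425%). The median was 1.05 at D0 and 1.13 at D8, and turned to 0.964 and 0.980 when the libraries were scaled by the promoters they share. For all 22 promoters with peaks in every library the HY/WT interval included 1 on both days. Over all genes the interval lay below 1 at 0.229% of such promoters at D0 and 0.190% at D8, and above 1 at 0.728% and 0.768%. At D8 the upper bound was above 2 at 17 of the 22, beside 42.4% over all genes, so that the intervals of these 17 include a 2-fold higher level in HY.

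Other genes of extracellular proteolysis are given for comparison. Of 28, which include plasminogen activators, proconvertases and regulators of ADAM trafficking, 22, 20, 24 and 22 had a promoter peak. Over all protein-coding genes the shares were 53.4%, 49.5%, 54.3% and 50.4%. Tll1, a procollagen C-proteinase, was D0-only (18 and 19 tags), and none was D8-only. Over all protein-coding genes 3.09% were D0-only and 0.943% D8-only. Plat, the tissue plasminogen activator, had 48, 9, 57 and 13, and Reck, a membrane-anchored inhibitor of metalloproteases, 24, 9, 37 and 10. Furin, a proconvertase, had 22, 13, 23 and 26.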

How the data were processed

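The deposited files were 1 narrowPeak list per library. Per the labels, Bowtie2, SAMtools, Picard and deepTools were used with mm9. Reads were trimmed, PCR duplicates dropped and peaks called in a procedure the study shares with its ChIP-seq, for which HOMER and MACS3 are named. Which of them called the ATAC-seq peaks is not said, and the columns follow the MACS layout. Versions, threshold and any Tn5 shift are not given in the sources used here. The authors deposited each summit's fold enrichment over local background (a ratio), −log10 p and −log10 q, and an integer score that was not used.

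Pileup and background were solved from fold and −log10 p, within 0.002 for 100% of peaks. A site takes the highest pileup of each library. Ratios carry exact conditional binomial intervals (95%). Functions were tested on simulated data. Genes came from GENCODE vM1 (NCBIM37). Python 3.11.15, numpy 2.4.6, pandas 2.3.3 and scipy 1.17.1 were used.

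Named were the 10 strongest D0-only and D8-only sites, up to 5 restricted to each genotype, genes with a day- or genotype-restricted promoter peak, listed Timp, Mmp, Adamts and Adam genes, and the 5 genes with most sites. Members and lists were chosen with earlier results of these data known. Mmp17, Mmp27, Mmp28 at its promoter, Adamts7, Adamts10, the sites shown for their motifs, other sites of named genes and the examples of other proteolysis genes were chosen after their values were seen. Counting any peak that overlaps the promoter and taking the promoter ratio at a single site were alternatives chosen after seeing the data.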

Additional observations from a re-analysis of the deposited data

Results flagged for a closer look

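At 2 of the 22 promoters with a peak in all 4 libraries the D8/D0 ratio of scaled pileup lay on opposite sides of 1 in the 2 genotypes (9.09%, beside 29.4% of the 10024 such promoters of all genes). At the Adamts1 promoter it was 1.01 in WT (0.657 to 1.53) and 0.822 in HY (0.526 to 1.27). At the promoter of Mmp17, a membrane-type enzyme, it was 0.770 in WT (0.403 to 1.44) and 1.43 in HY (0.799 to 2.57), from pileups of 29 and 18 in WT and 26 and 26 in HY. All 4 intervals include 1, and with 1 library per group the difference between the genotypes was not tested.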

How the results depend on the processing

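Of 76 values recomputed under 12 alternatives, 54 kept their direction and moved by less than their interval (counts by less than 1.5 times), 20 moved and 2 reversed. The share over all sites or peaks near protein-coding genes stands in parentheses. These counts compare each value with its main value, and not with the share over all. Some values counted as kept therefore changed side of that share. Among them, sites in all 4 libraries were 28.9% within 10 kb (37.3%). Within 100 kb, D0 peaks without a D8 peak were 71.2% in WT (72.0%) and 69.8% in HY (70.6%). Within 10 kb of a TSS, the D8 peaks without a D0 peak were 17.2% in WT (20.3%) and 14.4% in HY (20.9%), the D0-only sites 24.6% (19.0%) and the D8-only sites 3.32% (5.58%). With lists of equal length, the shares were 30.8% of WT D8 peaks (34.4%), 62.0% of WT D0 peaks (58.4%) and 56.9% of HY D0 peaks (56.5%), and D0-only, D8-only and shared sites were 10.2% (12.1%), 9.97% (12.6%) and 38.8% (35.1%). Peaks with −log10 q of at least 5 gave 19.2% for HY D8 (23.0%). Counting only peaks nearest to one of these genes gave 77.6% for WT D0 (70.2%) and 23.8% for sites in all 4 libraries (28.0%). With 1 shared bp the D0 shares were 55.1% in WT (55.9%) and 52.3% in HY (52.7%), and with both peaks covered by 50% the D8 shares were 57.1% in WT (55.4%) and 59.2% in HY (56.6%). Merging summits within 200 bp gave 22.1% for sites in all 4 libraries (22.3%). At single promoter sites the intervals below 1 in HY were 5 instead of 3, and those above 1 were 1 instead of 0. Scaling by shared promoters turned the median HY/WT ratio to 0.964 at D0 (0.973) and 0.980 at D8 (0.968). The cause of these shifts was not tested. No paired analysis was run: each group had 1 library, and no result comes from a test. Peaks of few tags are limited by depth, which was lower at D8.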
